A study of Mus musculus with 8 samples.

Results

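The nuclear-encoded genes of the respiratory chain were taken from the ventral prostate transcriptomes of mice with prostate-directed human SKP2. Members were the rows whose gene symbol starts with Ndufa, Ndufb, Ndufc, Ndufs or Ndufv and a digit, with Uqcr, with Cox4 to Cox8 and the letter a, b or c, or with Atp5, which gave 80 of the 36333 genes in the table. Of these, 35 code for subunits of complex I, 8 for complex III, 15 for complex IV and 15 for ATP synthase, and the other 7 are Ndufa4, Ndufa4l2, Cox7a2l, Atp5s, Atp5sl and 2 pseudogenes. The study set 4 hSKP2-KI mice against 4 FVB/N wild type (WT) mice, all at an age of 12 months, with 1 library from the ventral lobes of each mouse. In hSKP2-KI mice a P2A peptide and the human SKP2 coding sequence stand in exon 1 of the mouse's own probasin gene (Pbsn), so that the probasin promoter of the prostate epithelium drives SKP2, the substrate-binding F-box subunit of a ubiquitin ligase. Females carrying 1 knock-in allele were bred with FVB/N males, and the founder line behind these 4 mice is not given in the sources used here. Expression was given as TPM (reads on a gene divided by transcript length, then scaled so that every library has the same total), which carries no read depth.

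The respiratory chain sits in the inner mitochondrial membrane. Complex I takes electrons from NADH, complex III passes them to cytochrome c and complex IV hands them to oxygen, while protons are pumped out of the matrix, and ATP synthase lets them flow back to make ATP. Most subunits are coded in the nucleus and imported, and several complex IV subunits exist in a form found in most tissues and a second form typical of heart and skeletal muscle, brown fat or testis. The secretory epithelium of the prostate is known for exporting citrate, which otherwise feeds this chain.

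On the TPM as deposited, most tested members rose modestly in hSKP2-KI prostates, and after a scaling that puts the middle gene of all libraries at the same level, none differed by the test. With genes of at least 1 TPM in at least 4 of the 8 libraries kept, 75 members were tested. Of these, 49 rose and 0 fell (limma on log2(TPM + 1), adjusted p under 0.05), against 32.7% of the 13080 tested genes called higher and 1.23% called lower. All 75 fold changes were above 0, from 0.01 for Ndufs5, which did not pass, to 0.92 for Cox8b, which did not pass either. The median log2 fold change was 0.31 over the 75 members and 0.23 over all tested genes, and 59 of the 75 lay above the latter. Members spread less than the whole table, with 10th and 90th percentiles of 0.19 and 0.47, where those of all tested genes were -0.01 and 0.64. In 48 of the 75 every hSKP2-KI library was above every WT library, which held for 34% of all tested genes.

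The second view used median-ratio scaling, in which each library is divided by the median over genes of its ratio to the average library. It moved the median of the 13080 log2 fold changes from 0.23 to -0.01 and that of the members from 0.31 to 0.04. Of the 75 members, 0 were called higher and 0 lower by limma, against 6.91% and 4.25% of all tested genes, and 5 had an unadjusted p under 0.05. The fold changes then fell on both sides of WT, with 46 above 0 and 29 below. The 95% interval lay within 0.5 of 0 on the log2 scale for 66 of the 75. No member had all hSKP2-KI libraries above all WT libraries, which held for 10.3% of tested genes, and 1 member had all of them below, which held for 8.91%.

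TPM as deposited are shares of a fixed total, and a few secretory genes held unequal parts of that total in the 2 genotypes. Sbp, Sbpl and Spink1 together took 32.9% ± 1.01 (SD, n = 4) of TPM in hSKP2-KI libraries and 43.1% ± 2.48 (SD, n = 4) in WT libraries. The 80 members together took 1.56% ± 0.0656 and 1.24% ± 0.115 (SD, n = 4). In whole lobes, fewer cells of a type and less RNA per cell cannot be told apart. Markers of stromal cells also moved with the genotype: 10 of 10 tested smooth muscle markers and 9 of 10 fibroblast markers rose as deposited, and 6 and 4 of them after median-ratio scaling. The summed TPM of the smooth muscle list ran from 3249 to 4924 in hSKP2-KI and from 2167 to 2738 in WT libraries, and that of the fibroblast list from 885 to 1570 and from 490 to 713. Of macrophage markers 7 of 9 and of endothelial markers 7 of 10 rose as deposited, and 0 and 3 after scaling. Of all tested genes 32.7% were called higher as deposited and 6.91% after scaling. Of the luminal epithelial markers 3 of 10 rose as deposited, with sums of 3239 to 4071 in hSKP2-KI and 2823 to 3151 in WT libraries, and after scaling 0 were higher and 1 lower (Spint1, -0.49, limma adjusted p = 0.0357). Their median went from 0.17 to -0.10 with the scaling. No marker of these 5 lists was at 0 in all 8 libraries. The part of these shifts in the members' values was not tested. The genotype labels held in every library: Skp2 was at 37.3 to 60.6 TPM in hSKP2-KI and 1.05 to 2.27 TPM in WT libraries, and Pbsn at 93.0 to 173.8 and 3980 to 9232 TPM.

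**Figure D1:**
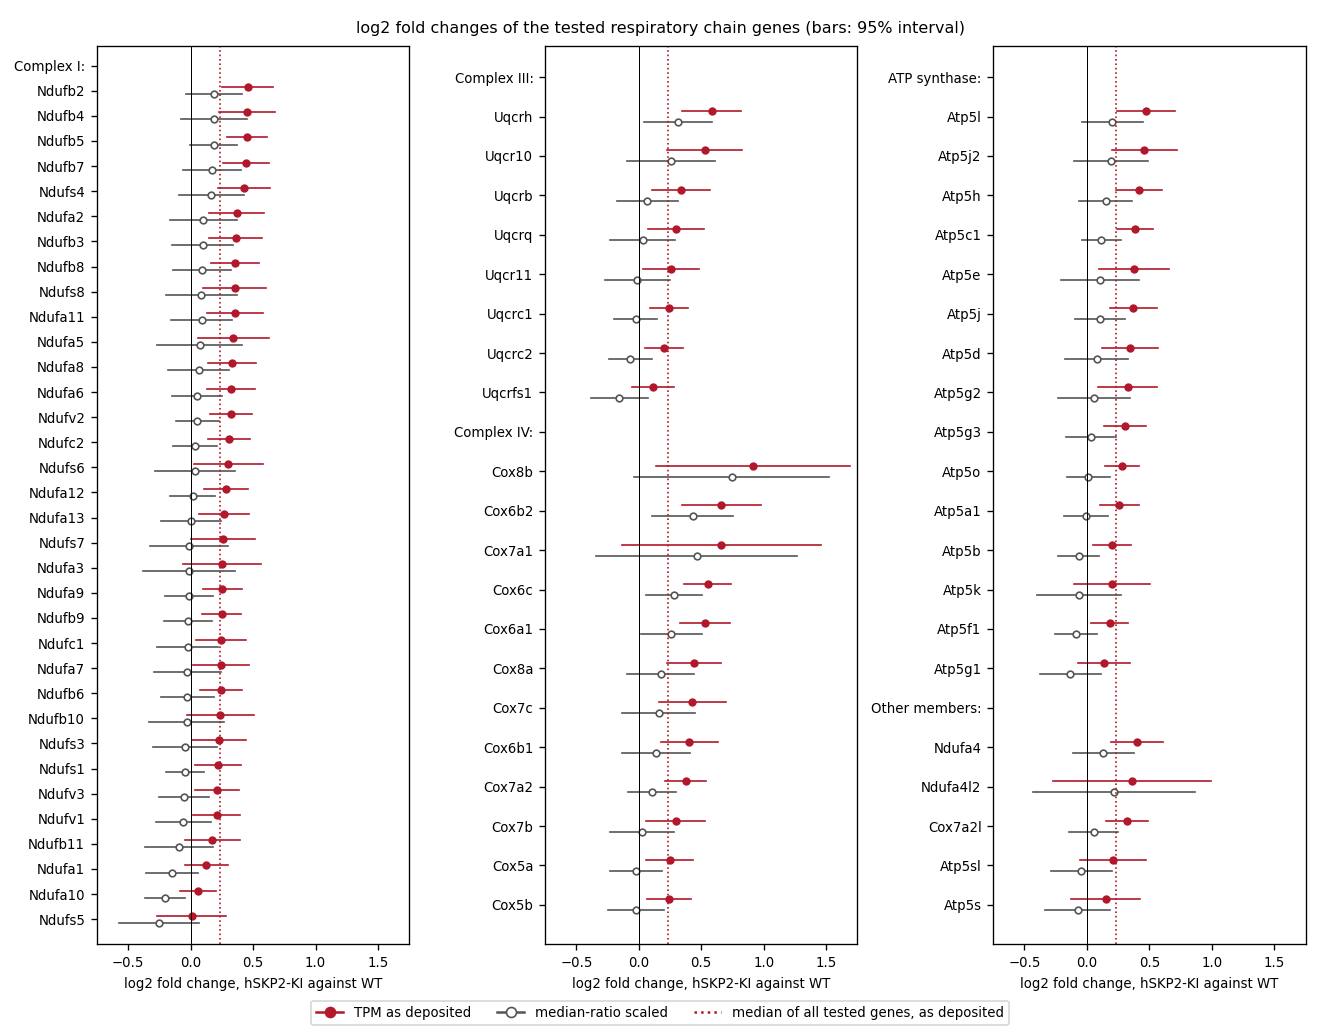
log2 fold changes (hSKP2-KI against WT, x axis) of 74 of the 75 tested members, grouped by complex and sorted, with TPM as deposited (filled red) and after median-ratio scaling (open grey). Bars are 95% intervals from limma, and the dotted line marks 0.23, the median over the 13080 genes as deposited; every red point lies above 0, while the grey points lie on both sides of it.

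Complex I is built from a core that carries the electrons and many accessory subunits around it. It had 20 of 35 genes called higher as deposited, against 32.7% of all tested genes, with a median log2 fold change of 0.28. After median-ratio scaling 0 were called, with a median of 0.02. Its summed TPM was 4712 ± 184 in hSKP2-KI and 3873 ± 375 in WT libraries (SD, n = 4), a ratio of 1.22 that became 1.01 after scaling. In the core, 3 of 7 were called. Among them Ndufv2, an iron-sulfur subunit of the NADH-binding module, rose by 0.32 (SE 0.08, limma adjusted p = 0.0114), and Ndufs8, another iron-sulfur subunit, by 0.35 (limma adjusted p = 0.0364). Those that did not pass, such as Ndufs1, the largest subunit, had log2 fold changes of 0.21 to 0.26.

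Among the 28 accessory subunits 17 were called higher as deposited, against 32.7% of all tested genes. Of these 17, 8 were in the Ndufb family of 10, whose products lie in the membrane arm. Ndufb2 led with 173, 165, 169 and 173 TPM in hSKP2-KI and 133, 128, 101 and 135 TPM in WT libraries, a log2 fold change of 0.46 (SE 0.09, limma adjusted p = 0.00665). All 4 hSKP2-KI values lay above all WT values. The other end of the order was held by accessory subunits as well. Ndufs5 (28.1 ± 4.39 against 27.8 ± 4.03 TPM, SD, n = 4) had a log2 fold change of 0.01, Ndufa10 0.06, Ndufa1 0.12 and Ndufb11 0.17, none of which passed.

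Ndufa10 (Entrez 67273, chr1:92439486-92473825, GRCm38) was the 1 member whose libraries separated downward after scaling. As deposited its values overlapped, at 72.3, 71.2, 76.5 and 74.0 TPM in hSKP2-KI and 72.1, 73.7, 67.6 and 68.6 TPM in WT libraries. After median-ratio scaling they were 67.8, 64.2, 69.9 and 65.9 against 87.2, 74.8, 75.7 and 72.6. The scaled log2 fold change was -0.21 (95% interval -0.37 to -0.05), which missed the threshold over all genes (limma adjusted p = 0.0926).

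Complex III had 6 of 8 genes called higher as deposited, against 32.7% of all tested genes. Its median was 0.28, and 0.01 after scaling. The core proteins and the iron-sulfur protein had its 3 lowest fold changes. Uqcrc1 and Uqcrc2, the core proteins, rose by 0.24 and 0.20, and Uqcrfs1, the Rieske iron-sulfur protein, was at 223 ± 15.8 against 205 ± 11.3 TPM (SD, n = 4), a log2 fold change of 0.11 that did not pass (limma adjusted p = 0.235). Above them stood a small subunit. Uqcrh, the hinge protein (Entrez 66576, chr4:116066965-116075070), was at 427, 391, 355 and 431 TPM in hSKP2-KI and 300, 272, 218 and 283 TPM in WT libraries. Its groups did not overlap, and the log2 fold change of 0.58 (SE 0.11, limma adjusted p = 0.00413) was the highest of the 67 broadly expressed subunits, which are those of the 4 complexes without the 6 tissue-restricted forms of complex IV. Median-ratio scaling left 0.32 (95% interval 0.04 to 0.59, limma adjusted p = 0.125). Uqcr10, another small subunit, rose by 0.53 as deposited (limma adjusted p = 0.0166).

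Complex IV had the highest median of the 4 complexes, 0.44 over 12 tested genes as deposited and 0.17 after scaling. These 12 include 3 tissue-restricted forms of low TPM, and over the 9 broadly expressed subunits the medians were 0.41 and 0.14. The summed TPM ratio of complex IV was 1.35 as deposited and 1.12 scaled. That difference between complexes was not tested. Of the 9 broadly expressed subunits in the rule 8 rose, against 32.7% of all tested genes. Their log2 fold changes ran from 0.24 for Cox5b, a zinc-binding subunit facing the matrix, to 0.55 for Cox6c. Cox7b at 0.30 did not pass (limma adjusted p = 0.0525). Cox6a1 (Entrez 12861, chr5:115345652-115348958), the broad form of subunit 6a and the member with the highest mean TPM in hSKP2-KI libraries (in WT libraries Atp5b was higher, at 632 against 583 TPM), was at 904, 865, 782 and 812 TPM in hSKP2-KI and 622, 580, 500 and 630 TPM in WT libraries. The lowest hSKP2-KI library stood well above the highest WT library, and the log2 fold change was 0.53 (SE 0.09, limma adjusted p = 0.00348). Cox6c (Entrez 12864, chr15:35931976-35938246) was at 400, 355, 407 and 411 TPM against 285, 261, 237 and 290 TPM, again without overlap (limma adjusted p = 0.00221). Cox8a, the broad form of subunit 8, rose by 0.44, Cox7c by 0.43, Cox6b1 by 0.41, Cox7a2 by 0.38 and Cox5a by 0.25.

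After median-ratio scaling Cox6a1 kept a log2 fold change of 0.26 (95% interval 0.02 to 0.51) and Cox6c one of 0.28 (0.06 to 0.51), neither past the threshold (limma adjusted p = 0.153 and 0.101). The choice of scaling decided these calls. Under quantile normalization Cox6a1, Cox6c and Uqcrh were the 3 members called higher, against 5.42% of all tested genes, and with the 20 most abundant genes taken out of the total Cox6a1 and Cox6c were the 2 called, against 6.82%.

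ATP synthase had 12 of 15 genes called higher as deposited, against 32.7% of all tested genes. Its median was 0.33, and 0.06 after scaling. All 5 subunits of the F1 head, which makes the ATP, rose: Atp5a1 (alpha) by 0.26, Atp5b (beta) by 0.20, Atp5c1 (gamma) by 0.38, Atp5d (delta) by 0.35 and Atp5e (epsilon) by 0.38. Atp5c1 had the lowest adjusted p of them, at 174, 169, 167 and 174 TPM in hSKP2-KI and 132, 134, 123 and 135 TPM in WT libraries, with no overlap (SE 0.06, limma adjusted p = 0.00297). Scaled, the F1 values ran from -0.07 for Atp5b to 0.12 for Atp5c1. Of the small membrane subunits, Atp5l (subunit g, Entrez 27425, chr9:44913248-44920742) rose by 0.47 and Atp5j2 (subunit f) by 0.46, while Atp5k (subunit e) at 0.20 did not pass. Atp5f1, the b subunit of the peripheral stalk, at 0.18 did not pass either (limma adjusted p = 0.0575). Of the 2 proteins named for ATP synthase that are not subunits of it, Atp5s had 0.15 and Atp5sl 0.21, and neither passed.

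**Figure D2:**
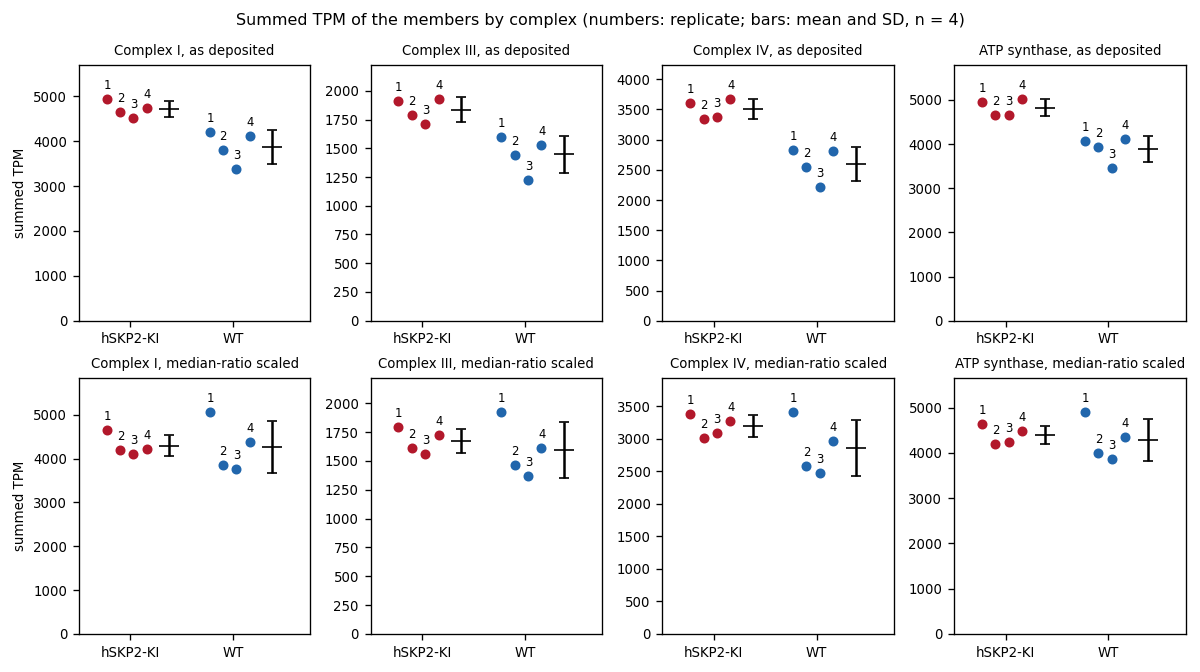
Summed TPM of the members of each complex in each library (y axis, from 0), with TPM as deposited in the top row and median-ratio scaled in the bottom row; numbers are replicates and the bar is the mean and SD of 4. As deposited every hSKP2-KI library lies above every WT library in all 4 complexes, and after scaling WT replicate 1 lies above all other libraries.

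The subunits moved together from library to library. The mean log2(TPM + 1) of the 67 broadly expressed subunits was 7.52, 7.42, 7.41 and 7.50 in hSKP2-KI and 7.26, 7.14, 6.96 and 7.25 in WT libraries, a difference of 0.31 between genotypes. WT replicate 3 was the lowest of the 8 libraries for 63 of the 67. After median-ratio scaling the means were 7.43, 7.28, 7.27 and 7.34 against 7.53, 7.16, 7.12 and 7.33, so that the genotypes differed by 0.04 and the WT mice among themselves spanned 0.41. WT replicate 1 then was the highest of the 8 for 51 of the 67 subunits, and WT replicate 3 the lowest for 32. WT replicate 1 also had the lowest scaling factor, 0.827, where the other 7 ran from 0.894 to 1.12. Without WT replicate 1 the scaled median of the members was 0.11 and 2 were called, Uqcrh and Cox6c. Without WT replicate 3 it was -0.01 and 0 were called.

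**Figure D3:**
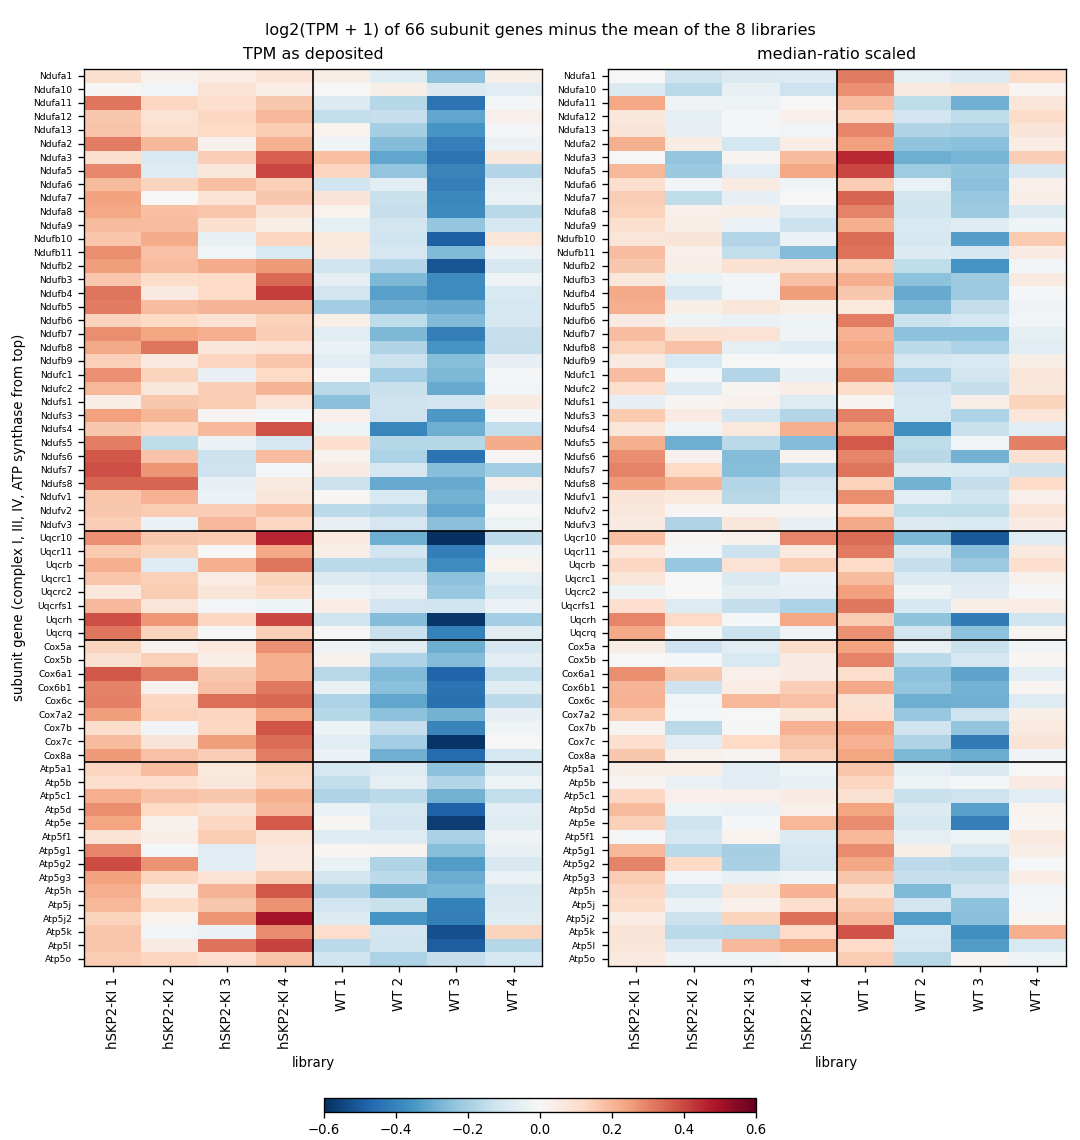
log2(TPM + 1) of 66 of the 67 broadly expressed subunits (rows, by complex) in each library (columns) minus the mean of the 8 libraries, as deposited (left) and median-ratio scaled (right). WT replicate 3 is the darkest blue column on the left, and WT replicate 1 the reddest on the right, across all 4 complexes.

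Promoters are shown for genes picked near both ends of the order: Uqcrh, Cox6a1 and Atp5l, which rose as deposited, and Ndufs5, which had the smallest fold change. Each line gives 250 bases upstream of the start, 5′ to 3′ on the minus strand, from RefSeq (GRCm38.p6), at chr4:116075071-116075320 for Uqcrh, chr5:115348959-115349208 for Cox6a1, chr9:44920743-44920992 for Atp5l and chr4:123718187-123718436 for Ndufs5. Capitals mark matches, on either strand, to the letters of sites known for NRF1 (GCATGCGC), ERR (AAGGTCA), ETS factors (CCGGAAG) or YY1 (AAGATGGC), regulators associated with mitochondrial genes, and where 2 matches overlap the capitals run through both.
Uqcrh: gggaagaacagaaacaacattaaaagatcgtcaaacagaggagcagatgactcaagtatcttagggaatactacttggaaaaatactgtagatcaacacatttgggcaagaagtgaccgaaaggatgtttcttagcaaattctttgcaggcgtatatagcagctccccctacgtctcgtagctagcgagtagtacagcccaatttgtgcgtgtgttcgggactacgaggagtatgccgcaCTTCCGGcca
Cox6a1: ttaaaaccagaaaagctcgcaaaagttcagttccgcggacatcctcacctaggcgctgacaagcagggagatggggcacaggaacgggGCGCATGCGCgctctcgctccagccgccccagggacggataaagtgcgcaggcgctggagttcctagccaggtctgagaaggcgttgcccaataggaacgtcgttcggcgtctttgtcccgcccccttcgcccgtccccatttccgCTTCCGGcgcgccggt
Atp5l: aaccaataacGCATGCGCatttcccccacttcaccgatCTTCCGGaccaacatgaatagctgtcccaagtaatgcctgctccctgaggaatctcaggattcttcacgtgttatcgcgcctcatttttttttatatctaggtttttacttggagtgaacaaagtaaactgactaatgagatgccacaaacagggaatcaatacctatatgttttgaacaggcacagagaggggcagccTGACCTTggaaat
Ndufs5: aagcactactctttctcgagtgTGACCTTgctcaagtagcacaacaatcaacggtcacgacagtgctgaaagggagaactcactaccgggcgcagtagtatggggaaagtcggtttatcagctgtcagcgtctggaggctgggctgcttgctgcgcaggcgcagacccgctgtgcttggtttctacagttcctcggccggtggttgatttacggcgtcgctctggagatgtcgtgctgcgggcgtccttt
An ETS match stands in the first 3 and none in Ndufs5, an NRF1 match in Cox6a1 and Atp5l, and an ERR match in Atp5l and in Ndufs5, which lie near opposite ends. These 4 were picked near the ends, members with higher fold changes were passed over, and other members did not all follow them. Cox8b, Cox6b2 and Cox7a1, at the top with 0.92, 0.66 and 0.66, held no NRF1, ERR, ETS or YY1 match in their 250 bases. Uqcr10 also ranked above Atp5l, which was at 0.47. Uqcr10, at 0.53, held no ETS match in its 250 bases, and neither did Ndufa10 and Ndufa1 near the low end. Ndufs3, at 0.23 and not called, held an ETS match. A promoter window was held for 66 of the 80 members. Over 300 bases, from 250 before to 50 after the start, 13.6% of these 66 held the NRF1 letters against 5.67% of 10376 tested genes, 10.6% against 3.83% the ERR letters, 16.7% against 5.09% the YY1 letters and 21.2% against 19.6% the ETS letters. The short CCAAT box stood in 43.9% and 42.1%. A match is a run of letters and no measured site.

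The complex IV isoforms of restricted tissues were near the lower limit of the table. Cox6a2, the heart and skeletal muscle form of subunit 6a (Entrez 12862, chr7:128205435-128206366), was at 7.32 TPM in hSKP2-KI replicate 4, 2.35 TPM in WT replicate 2 and 0 in the other 6 libraries. Of 12 listed skeletal muscle genes 8 were also highest in these 2 libraries: Myh4, a fast myosin heavy chain, was at 12.3 and 12.6 TPM in them and at most 0.307 TPM elsewhere, and Mb, myoglobin, at 21.7 and 11.8 TPM and at most 0.783 TPM elsewhere. The mean log2(TPM + 1) of the 12 listed skeletal muscle genes was 4.49 and 3.82 in these 2 and 1.84 to 2.55 in the other 6. The other 4 had another order. Acta1, skeletal actin and the most abundant of the list, was at 370, 350, 244 and 305 TPM in hSKP2-KI and 151, 229, 194 and 180 TPM in WT libraries, without overlap, and rose by 0.75 as deposited (limma adjusted p = 0.00547). Tnnc2, a troponin, rose by 0.83 (limma adjusted p = 0.0130). These were the 2 called of 7 tested, against 32.7% of all tested genes, with 0 after median-ratio scaling, against 6.91%. Actn3 was highest in hSKP2-KI replicate 4 and Myh2 in hSKP2-KI replicate 2. The list's summed TPM ran from 306 to 571 in hSKP2-KI and from 195 to 384 in WT libraries.

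Cox7a1, the muscle form of subunit 7a, was at 5.36, 2.13, 2.00 and 10.5 TPM in hSKP2-KI and 1.85, 2.73, 2.11 and 2.36 TPM in WT libraries, which overlapped (log2 fold change 0.66, limma adjusted p = 0.163). Cox8b, a form of subunit 8 found in muscle and brown fat, was at 1.23, 3.76, 2.02 and 7.57 TPM against 1.16, 2.00, 0.947 and 0.713 TPM (log2 fold change 0.92, the highest of the 75, limma adjusted p = 0.0652). For both genes hSKP2-KI replicate 4 was the highest of all libraries. Of 5 brown fat markers, Ucp1 (the uncoupling protein that defines brown fat) and Elovl3 were listed at 0 in all 8, Cidea was at 3.76 TPM in hSKP2-KI replicate 4 and at most 0.625 TPM elsewhere, and Otop1 was highest there too, at 0.189 TPM. Kcnk3, the only 1 of the 5 that was tested, was lowest there, at 222 TPM. Its log2 fold change was -0.37 as deposited, which did not pass, and -0.64 after median-ratio scaling, called lower. The mean log2(TPM + 1) of these 5 was 2.06 in hSKP2-KI replicate 4 and 1.60 to 1.80 in the others, and that of 10 adipocyte markers was 5.90 and 3.66 to 5.61. Their part in the Cox8b and Cox7a1 values was not tested. Without hSKP2-KI replicate 4 and WT replicate 2 the log2 ratio of Cox7a1 to Cox7a2 differed by -0.0043 between genotypes, where it differed by 0.28 with them. These 2 libraries, picked after the values were seen, held the highest Cox7a1 TPM of their genotypes (10.5 and 2.73). A smaller difference without them was therefore partly set by that choice. Of the 8 isoform ratios compared, 2 changed sign in this setting, and Cox8b to Cox8a was not among them.

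Cox6b2, a form of subunit 6b known from testis, did not follow that order. It was at 9.68, 8.37, 7.26 and 6.62 TPM in hSKP2-KI and 5.06, 4.87, 3.48 and 5.31 TPM in WT libraries, without overlap, and rose by 0.66 as deposited (SE 0.14, limma adjusted p = 0.00805). Scaled, it had 0.43 (95% interval 0.10 to 0.76, limma adjusted p = 0.0859). Of 7 germ cell markers 0 reached the filter, 4 were at 0 in all 8 libraries and their summed TPM was at most 0.371. The other members below the filter were Cox7b2 (0.273 TPM in hSKP2-KI replicate 4 and 0 elsewhere), Cox8c, Atp5c1-ps and Uqcrh-ps1, all listed at 0.

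**Figure D4:**
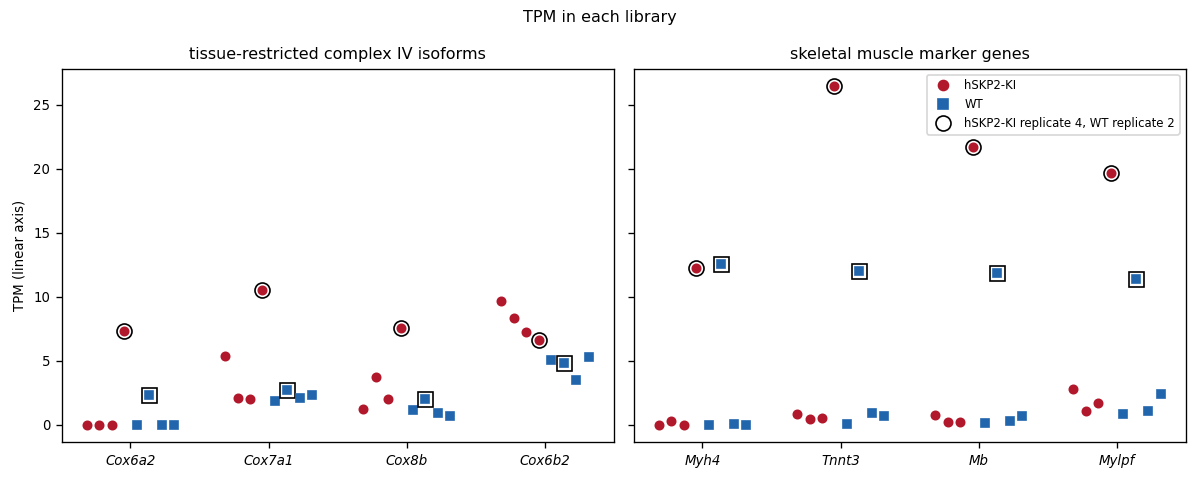
TPM (y axis, linear) in each library of 4 complex IV isoforms of restricted tissues (left) and 4 of the 12 skeletal muscle marker genes (right), with hSKP2-KI as circles and WT as squares. Black rings mark hSKP2-KI replicate 4 and WT replicate 2, which stand above the other libraries for these muscle markers and for Cox6a2, while for Cox6b2 hSKP2-KI replicate 4 is the lowest of its group.

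Ratios between forms of the same subunit, taken within a library, do not depend on the library total apart from the added 1. Of 8 pairs compared by a two-sided exact permutation test over 70 assignments, 0 passed after adjustment over the pairs, and the smallest p that 4 against 4 allow is 0.0286. That p was reached by Atp5g1 to Atp5g2, 2 genes for the same c-ring protein. Their log2 ratio was -1.35, -1.53, -1.25 and -1.25 in hSKP2-KI and -1.20, -1.05, -1.17 and -1.20 in WT libraries. All hSKP2-KI values were below all WT values, by 0.19 on average (exact permutation p = 0.0286, adjusted p = 0.229). The third c-ring gene, Atp5g3, had a ratio to Atp5g2 that differed by -0.02 (exact permutation p = 0.8). Cox6b2 to Cox6b1 differed by 0.26 (exact permutation p = 0.143) and Cox8b to Cox8a by 0.47 (p = 0.343 by the same exact test). Ndufa4, now counted with complex IV, rose by 0.40 (limma adjusted p = 0.0111) at 494 ± 50.6 against 373 ± 33.2 TPM (SD, n = 4), and its hypoxia-linked relative Ndufa4l2 stayed between 0.405 and 2.69 TPM in all libraries.

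Genes around the chain but outside the naming rule, from lists of known function, were compared by the same test. In complex II, the succinate dehydrogenase, Sdhc and Sdhd rose by 0.44 and 0.37 and Sdha and Sdhb, at 0.11 and 0.21, did not pass. Cox4i1, the most abundant nuclear complex IV gene, rose by 0.32 from 907 ± 97.4 to 1128 ± 85.7 TPM (SD, n = 4, limma adjusted p = 0.0312), and Ndufab1, the acyl carrier protein of complex I, by 0.35. Cycs (cytochrome c) and Cyc1 had 0.16 and 0.19 and did not pass. Assembly factors rose in 6 of 14 tested for complex I, 3 of 5 for complex III, 4 of 22 for complex IV and 1 of 3 for ATP synthase, against 32.7% of all tested genes.

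Regulators of mitochondrial biogenesis had 3 of 14 called higher, against the same 32.7%: Esrra (0.40), Gabpa (0.34) and Polg (0.36), while Ppargc1a and Nrf1, at 0.17 and 0.09, did not pass. Gabpa overlaps Atp5j in the annotation, and reads there may be shared. Of 77 mitochondrial ribosomal protein genes 26 rose as deposited, near the 32.7% of all tested genes, with a median of 0.22 against 0.23. After median-ratio scaling 0 genes of all these lists were called higher and 1 lower, Mrpl9 (-0.37, limma adjusted p = 0.0356). The 13 protein genes of the mitochondrial genome were listed at 0 in all 8 libraries, so nuclear and mitochondrial subunits could not be compared. Of the 80 members 25 overlap another gene in RefSeq, and how reads of overlapping genes or pseudogene copies were counted is not given in the sources used here.

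Annotated transcript length and fold change were weakly related, in a way that leaned on 2 libraries. Length here was the median over the annotated protein-coding transcripts of a gene. It can differ from the length of the transcript expressed: Ndufb2 had 2413 bases, Ndufs1 651 and Uqcrc1 533. Across the 67 broadly expressed subunits the Spearman correlation of transcript length with the log2 fold change as deposited was -0.28, against -0.01 across 12034 tested genes with a length. Genes share libraries and are not replicates. Without WT replicate 3 it was -0.16 and without hSKP2-KI replicate 4 -0.18, and it ran from -0.25 to -0.37 without each of the others. Within single libraries, the correlation of length with the deviation from the 8-library mean was highest in WT replicate 3 (0.52) and lowest in hSKP2-KI replicate 4 (-0.43), and lay between -0.18 and 0.26 in the others. The 26 subunits with a length by this measure under 600 bases had a median log2 fold change of 0.34. The other 41 had 0.28. Called higher were 18 of the 26 and 28 of the 41, similar shares, against 32.7% of all tested genes. After median-ratio scaling the medians were 0.07 and 0.01, and 0 were called in either class.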

How the data were processed

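Poly-A RNA from the ventral lobes of 8 mice was sequenced as paired-end reads by the authors, who trimmed the reads and mapped them to the mouse genome in CLC software. The submitters' processing notes name the builds mm10 and GRCm38. Counting options are not given in the sources used here. The authors deposited TPM for 36333 genes, and the 8 columns each sum to 1000000, so depth is unknown and count models were not used.

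Genes with at least 1 TPM in at least 4 of 8 libraries were fitted as log2(TPM + 1) with limma 3.58.1 in R 4.3.3 (mean-variance trend, two-sided, Benjamini-Hochberg adjustment over 13080 genes, threshold 0.05), without a block. Fold changes on this scale understate changes of low genes. Alternatives were median-ratio scaling, quantile normalization, a total without the 20 most abundant genes, a pseudocount of 0.1, no filter, a filter on a mean of 5 TPM, a replicate block and leaving out each library. Leaving out libraries or adding a block after median-ratio scaling, and the isoform ratios without the 2 libraries rich in muscle genes, and the length correlation without each library, were chosen after seeing the data. The fit was tested on simulated data. Members and lists were chosen with earlier results of these data known. Named were the core subunits of complexes I, III and F1, complex IV, the 10 members highest and the 10 lowest in fold change, those under the filter and the isoform pairs. A named member is left out of the text and plots. Others named were chosen after their values were seen. Replicate numbers do not pair the mice. Promoters and positions came from RefSeq for GRCm38. Transcript lengths were the median over the protein-coding transcripts of each gene in GENCODE. Figures were drawn with matplotlib 3.10.9.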

Additional observations from a re-analysis of the deposited data

Results flagged for a closer look

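Of 169 groups of 4 libraries, 8 had a library far from the other 3 by Dixon's ratio (gap to the nearest value over the whole range, above its 95% critical value). By chance about 1 in 20 groups would be flagged, and 8 of 169 is near that share. In 4 of them WT replicate 3 was the low library: Atp5l (ratio 0.847), Atp5d (0.830), Atp5j (0.845) and Atp5a1 (0.833), all ATP synthase genes. As deposited, WT replicate 3 was the lowest library for 63 of the 67 broadly expressed subunits, so this was not particular to ATP synthase. In the other 4 the library that stood apart was hSKP2-KI replicate 4 for Cox7b2 (ratio 1), Cox6a2 (ratio 1) and the Cox6a2 to Cox6a1 ratio (0.935), and WT replicate 2 for Cox6a2 (ratio 1). Of 12 skeletal muscle genes 8 were highest in the same 2 libraries, and their part in the Cox6a2 values was not tested.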

How the results depend on the processing

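The count of members called higher, 49 as deposited, was 0 after median-ratio scaling, 3 after quantile normalization and 2 without the 20 most abundant genes. It ran from 33 to 45 with each library left out, the lowest without hSKP2-KI replicate 4 and without WT replicate 3. The counts with a pseudocount of 0.1, a filter on a mean of 5 TPM and no filter were 49, 49 and 37, and 0 members were called lower under any of these. Of all tested genes 4433 were called, against 1460, 1317 and 1330 under the same 3 scalings and 2993 to 4677 with a library left out. After median-ratio scaling 0 to 2 members were called with each library left out, 2 of them without WT replicate 1. The replicate block gave 57 members as deposited, and it also raised the genes called higher over the whole table from 4272 to 4941. With the block and median-ratio scaling 1 member was called (Uqcrh). The correlations of same-numbered libraries after removing genotype means were 0.22, -0.11, 0.17 and -0.01, so the numbers were not taken to pair the mice.

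Some named members, all above 0 as deposited, had log2 fold changes below 0 under another scaling. After median-ratio scaling they were Ndufs1 -0.043, Ndufs3 -0.042, Ndufs7 -0.0094, Ndufv1 -0.059, Uqcrc1 -0.025, Uqcrc2 -0.068, Uqcrfs1 -0.15, Cox5a -0.022, Cox5b -0.024, Atp5a1 -0.012, Atp5b -0.067, Ndufs5 -0.25, Ndufa10 -0.21, Ndufa1 -0.15, Atp5g1 -0.13, Atp5s -0.075, Ndufb11 -0.096, Atp5f1 -0.087, Atp5k -0.067. After quantile normalization they were Ndufs1 -0.018, Ndufs3 -0.017, Ndufv1 -0.022, Uqcrc1 -0.0041, Uqcrc2 -0.043, Uqcrfs1 -0.15, Cox5a -0.0028, Cox5b -0.0094, Atp5b -0.057, Ndufs5 -0.23, Ndufa10 -0.16, Ndufa1 -0.11, Atp5g1 -0.12, Atp5s -0.16, Ndufb11 -0.092, Atp5f1 -0.056, Atp5k -0.032. Without the 20 most abundant genes they were Ndufs1 -0.023, Ndufs3 -0.021, Ndufv1 -0.038, Uqcrc1 -0.0040, Uqcrc2 -0.047, Uqcrfs1 -0.13, Cox5a -0.00048, Cox5b -0.0026, Atp5b -0.046, Ndufs5 -0.23, Ndufa10 -0.19, Ndufa1 -0.12, Atp5g1 -0.11, Atp5s -0.061, Ndufb11 -0.074, Atp5f1 -0.066, Atp5k -0.046. With a library left out, Ndufs5 ran from -0.090 to 0.086.

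Isoform ratios that changed sign were all short of the threshold. With a pseudocount of 0.1, Cox4i2 to Cox4i1 was 0.049 and Ndufa4l2 to Ndufa4 0.27. After median-ratio scaling, Cox6a2 to Cox6a1 was 0.028 and Ndufa4l2 to Ndufa4 0.083. Without the 2 libraries rich in muscle genes, Cox7a1 to Cox7a2 was -0.0043 and Ndufa4l2 to Ndufa4 0.31. With a library left out, Cox6a2 to Cox6a1 ran from -0.98 to 0.23, Atp5g3 to Atp5g2 from -0.076 to 0.024, Cox7a1 to Cox7a2 from -0.092 to 0.52 and Ndufa4l2 to Ndufa4 from -0.22 to 0.18. The causes were not tested.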
